A study of Mus musculus with 24 samples.

Results

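The livers of lean mice 6 h after removal of 80% of the liver were set against the livers of lean mice 6 h after sham surgery. The groups were taken from the sample titles, 4 arrays each, so that 8 of the 24 arrays of the series carry the comparison, and all 19631 probes detected on at least 4 of the 24 arrays were tested. The mice were males of the inbred strain C57BL/6J, 12 weeks of age per the labels, kept on the control diet of the supplier as the lean counterparts of diet-induced obese mice. In the hepatectomy group the larger share of the liver was cut away and the remnant was sampled. In the sham group the abdomen was opened at the midline and the liver was only handled. Both groups were killed under isoflurane, the liver was snap frozen, and total RNA was hybridised to Illumina expression arrays. The sham mice therefore share the incision, the anaesthesia and the interval with the hepatectomy mice and are not resting animals, and only 1 sex, 1 strain and 1 time point are covered. Lean mice after 70% hepatectomy and obese mice after 80% hepatectomy or sham surgery, 4 arrays each and 6 h after surgery as well, serve below to show where the lean 80% response differs.

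After partial hepatectomy the hepatocytes of the remnant leave quiescence in a primed state set by cytokines and immediate early transcription factors, and then pass through G1 under growth factors such as HGF and ligands of the EGF receptor. At the same time the remnant has to carry glucose output, bile acid handling and plasma protein synthesis for the whole body, and lipid builds up in it transiently. Resections beyond the standard size are known to delay or impair regrowth in rodents.

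Values are log2 intensities after background correction and normalisation, and lists of 4 values run from array 1 to array 4. Where a gene is followed by a single number in brackets, that is the log2 fold change of lean 80% over lean sham livers, and it passed the limma test at an adjusted p under 0.05, the threshold for calling a gene changed. The lean 80% arrays detected 16132 to 16617 probes each, and the lean sham arrays 15587 to 16024. Across probes the arrays correlated at 0.977 to 0.991 within the lean 80% group and at 0.987 to 0.992 within the lean sham group, against 0.929 to 0.941 between the groups. The tissue label was met by the hepatocyte markers: the 11 measured ones averaged 13.7 to 13.8 on the lean 80% arrays and 13.5 to 13.6 on the lean sham arrays. Arrays 1 and 2 of the lean 80% group lay on slide 3 and arrays 3 and 4 on slide 4, while all lean sham arrays lay on slide 1, and the effect of the slide cannot be told apart from that of surgery. The labels name the arrays replicates and do not say that each is another mouse, so the p-values rest only on the spread among arrays, which may be technical. In whole liver RNA, fewer cells of a type and less RNA per cell cannot be told apart.

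More than 50% of the measured genes differed between the groups. Of the 19631 probes 51.9% passed, and of 10763 genes 54.5% did. Among the genes, 2548 were higher (23.7%) and 3314 lower (30.8%) after 80% hepatectomy, and 730 rose (6.78%) and 742 fell (6.89%) at least 2-fold. The 4 lean 80% arrays and the 4 lean sham arrays did not overlap for 4814 genes (44.7%), and the median log2 fold change over all genes was -0.06. Against this background, the shares of each functional list that rose and fell are drawn in the plot of gene lists. The counts of list members against sham below are likewise to be read beside 23.7% higher and 30.8% lower. Immediate early genes, cytoskeletal and matrix genes, ribosome biogenesis genes and feedback inhibitors of signalling lay mostly on the higher side. Fatty acid synthesis, cholesterol synthesis and DNA replication genes lay mostly on the lower side, and subunits of the respiratory chain and of the ribosome mostly did not pass the test. Where the probes of a gene are dim, the size of the change depends on the background correction: without it Pdk4 read 5.63 and Cyp7a1 -5.17 in place of 6.82 and a bound, and no direction turned. A gene is read by its brightest probe. Of 229 named genes 91 have several probes, and in 22 of them a further probe differs in its call and in 16 others by over 1 on the log2 scale. The log2 fold change of such a probe stands beside the gene, and where probes differ the data do not settle the size of the change.

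**Figure D1:**
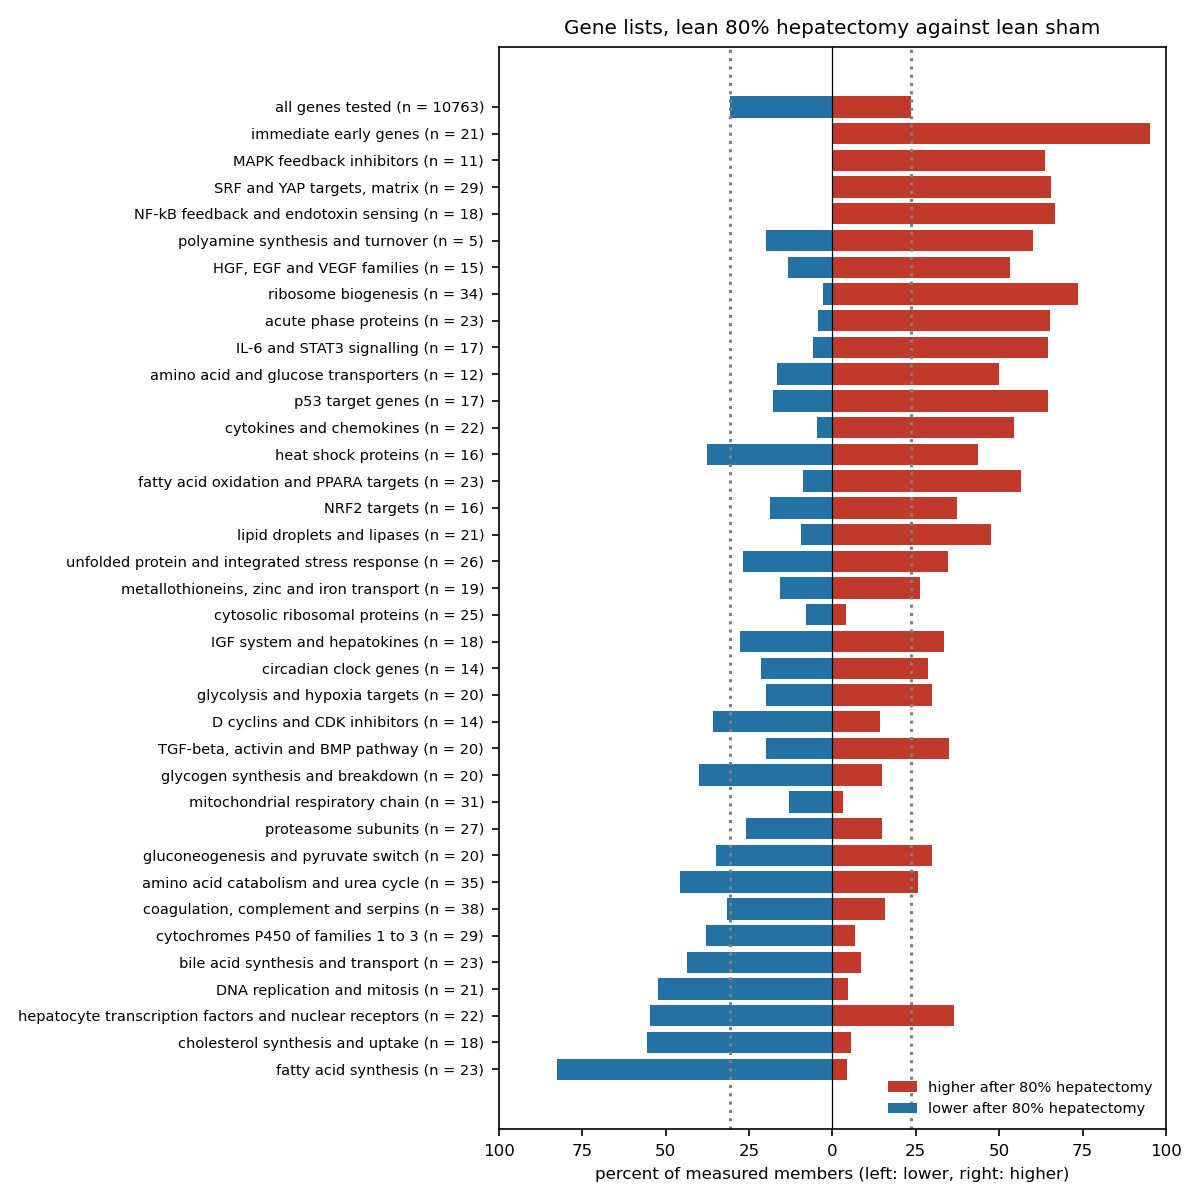
Percent of the measured members of each gene list that passed the limma test, to the right those higher and to the left those lower after lean 80% hepatectomy than after lean sham surgery (4 arrays each). Lists are sorted by their median log2 fold change, n is the number of measured members, and the dotted lines mark the shares over all 10763 genes, 23.7% higher and 30.8% lower.

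Genes of fuel choice and insulin action were among those with the largest changes. Pdk4, the kinase that shuts pyruvate out of mitochondrial oxidation, read 12.77, 11.88, 12.55 and 10.98 on the lean 80% arrays, against 4.91, 5.30, 5.20 and 5.46 on the lean sham arrays (113-fold higher, log2 6.82, SE 0.43, adjusted p = 3.25e-12). Igfbp1, a secreted binding protein of insulin-like growth factors that insulin represses, had values of 11.68, 11.82, 12.46 and 12.41 after 80% hepatectomy, against 4.64, 6.15, 5.84 and 6.64 after sham surgery, where it was detected on 3 of 4 (77.4-fold higher, log2 6.27, SE 0.33, adjusted p = 1.26e-13). In both genes the lowest lean 80% array lay far above the highest lean sham array.

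Irs2, an adaptor of the insulin receptor that rises in fasting liver, measured 9.38, 9.49, 9.66 and 9.04 in lean 80% livers, against 5.26, 5.36, 5.53 and 5.04 in lean sham livers (17.1-fold higher, log2 4.10, SE 0.26, adjusted p = 3.16e-12). Its paralogue Irs1 moved the other way, with 5.41, 4.70, 4.78 and 5.16 in lean 80% livers, detected on 2 of 4 arrays, and 6.24, 6.15, 5.94 and 5.77 in lean sham livers (log2 -1.01, SE 0.15, adjusted p = 4.47e-06). The insulin receptor itself, Insr, did not pass (log2 0.10, adjusted p = 0.430, another probe -0.43 with adjusted p = 0.00691), nor did the transcription factor Foxo1 (log2 0.07, adjusted p = 0.624). The gluconeogenic coactivator Ppargc1a (2.16) and the gluconeogenic enzyme Pck1 (1.21) rose.

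Glucose-6-phosphatase, G6pc, which releases free glucose, fell. It stood at 9.76, 9.82, 10.29 and 11.08 in the lean 80% group, against 11.50, 12.39, 12.23 and 13.02 in the lean sham group, without overlap (4.15-fold lower, log2 -2.05, SE 0.30, adjusted p = 3.36e-06). Of the 20 measured genes of gluconeogenesis and the pyruvate switch, 6 rose, 7 fell and 7 did not pass (median log2 fold change -0.13). These shares are not far from the 23.7% higher and 30.8% lower of all genes. The pyruvate dehydrogenase kinases Pdk1 (-1.25) and Pdk2 (-1.62, detected on 3 lean 80% arrays) were among those that fell. The glycolytic pyruvate kinase of liver, Pklr (-2.14), fell as well, whereas the prolyl hydroxylase Egln3 (2.56, other probes 0.64 and 0.86), Hif1a (1.62) and the glucose transporter Slc2a1 (1.56) rose among 6 of 20 genes of glycolysis and the hypoxia response, with 4 lower. With lean 80% arrays 3 and 4 only, Slc2a1 read 0.87 and lost its call (adjusted p = 0.0565).

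Glycogen metabolism changed mainly in the subunits that bring protein phosphatase 1 to glycogen. Ppp1r3c read 5.65, 6.15, 5.96 and 6.28 on the lean 80% arrays, against 11.28, 11.31, 11.18 and 11.45 on the lean sham arrays (39.2-fold lower, log2 -5.29, SE 0.55, adjusted p = 2.10e-08). Ppp1r3b, the main such subunit of mouse liver, had values of 6.18, 6.29, 6.40 and 7.08 after 80% hepatectomy, against 11.38, 11.62, 11.66 and 11.89 after sham surgery (35.5-fold lower, log2 -5.15, SE 0.39, adjusted p = 8.17e-11). Another subunit, Ppp1r3g, was high where these were low: it measured 9.64, 8.73, 7.67 and 8.32 in lean 80% livers, against 5.03, 4.48, 4.54 and 4.54 in lean sham livers, where it was detected on array 1 only (log2 3.94, SE 0.54, adjusted p = 1.53e-06, another probe 0.39 with adjusted p = 0.154). Glycogen phosphorylase Pygl (-0.997) and the glycogen-binding Stbd1 (-1.60) fell. The liver glycogen synthase Gys2 did not pass (log2 0.45, adjusted p = 0.0925), but did without lean sham array 4 (log2 0.58, adjusted p = 0.0443). In all, 3 of the 20 measured glycogen genes rose, 8 fell and 9 did not pass.

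Fatty acid synthesis was the list with the lowest median. Of 23 measured members 19 fell, 1 rose and 3 did not pass, at a median log2 fold change of -1.29. Srebf1, the transcription factor that insulin uses to switch on lipogenesis, stood at 6.91, 7.28, 6.88 and 7.15 in the lean 80% group, against 9.23, 9.96, 9.90 and 10.48 in the lean sham group (7.15-fold lower, log2 -2.84, SE 0.22, adjusted p = 1.73e-10). The carbohydrate-responsive factor Mlxipl fell too (-1.44).

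Angptl8, a secreted inhibitor of lipoprotein lipase that feeding induces, read 7.01, 6.41, 6.28 and 6.63 on the lean 80% arrays, against 11.16, 11.29, 11.63 and 12.05 on the lean sham arrays (31.0-fold lower, log2 -4.95, SE 0.27, adjusted p = 2.10e-13). Pnpla3, a lipid droplet protein under the control of Srebf1, had values of 5.43, 4.96, 4.50 and 5.86 after 80% hepatectomy, against 8.36, 10.19, 10.62 and 10.93 after sham surgery, with detection on 3 arrays after hepatectomy (log2 -4.83, SE 0.45, adjusted p = 3.57e-09). Mid1ip1 (-4.13) and Thrsp (-3.06), a pair of related proteins that promote lipogenesis, fell as well. Among the enzymes, Fasn (-1.86), Acss2 (-1.93, another probe -0.56), Dgat2 (-1.60), Agpat2 (-1.60), Acly (-1.29) and Elovl6 (-1.29, another probe -0.60 with adjusted p = 0.181) fell, of which Elovl6 lost its call with lean 80% arrays 3 and 4 only (adjusted p = 0.0557). The desaturase Scd1 did not pass (log2 -0.13, adjusted p = 0.608), and the elongase Elovl5 was the 1 member that rose (0.74).

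Coats of lipid droplets moved opposite to synthesis. Cidec, which fuses droplets, measured 10.38, 10.62, 11.94 and 10.07 in lean 80% livers, against 4.43, 4.45, 4.62 and 4.49 in lean sham livers, where no array detected it, so it was at least 59.5-fold higher (adjusted p = 1.97e-14). Hilpda, an inhibitor of the lipase Pnpla2, stood at 13.26, 12.61, 12.52 and 11.99 in the lean 80% group, against 6.41, 6.82, 6.59 and 6.91 in the lean sham group (60.3-fold higher, log2 5.91, SE 0.33, adjusted p = 5.27e-13). Plin2, the general droplet coat of hepatocytes, read 12.05, 12.15, 12.90 and 12.36 on the lean 80% arrays, against 8.80, 9.05, 9.31 and 9.06 on the lean sham arrays (9.94-fold higher, log2 3.31, SE 0.18, adjusted p = 2.56e-13). Plin4 (3.09), Plin5 (1.42), the lipase Pnpla2 (1.70) and its inhibitor G0s2 (1.85) rose too, while Cideb, a relative of Cidec that loads lipoproteins, fell (-0.68). In total 10 of 21 measured droplet and lipase genes rose and 2 fell (1 without lean sham array 4), with a median of 0.31. With genes below detection at their bound, which is the least change, the median was 0.02, so the size of the median rise is not settled.

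Targets of the fatty acid receptor PPARA rose in part. Of 23 measured genes of fatty acid oxidation 13 rose and 8 did not pass (median 0.36). The other two, Acaa1a and Bdh1, fell by 0.26 and by 0.43 on the log2 scale (Bdh1, another probe -0.34 with adjusted p = 0.121), and of these lower calls at most 1 was left without lean 80% array 2, 3 or 4 or lean sham array 1 or 4. The thioesterase Acot2 had values of 7.53, 7.07, 7.60 and 7.39 after 80% hepatectomy, against 4.49, 4.35, 4.39 and 4.34 after sham surgery, where no array detected it (at least 5.79-fold higher, adjusted p = 2.09e-08, another probe 0.39). Acot3 (2.68), Acot1 (2.21), the lipase inhibitor Angptl4 (1.89, another probe 0.29 with adjusted p = 0.134), the peroxisomal Ehhadh (1.63) and Hadha (0.83) rose.

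Single arrays weighed on a pair of these targets. Fgf21, a fasting hormone of the liver, measured 8.19, 8.33, 11.39 and 8.60 in lean 80% livers, against 5.37, 5.66, 6.72 and 7.72 in lean sham livers (log2 2.76, SE 0.52, adjusted p = 9.87e-05), and its log2 fold change was 2.00 without lean 80% array 3. Cyp4a14, a fatty acid hydroxylase, stood at 10.84, 10.40, 11.45 and 10.04 in the lean 80% group, against 4.66, 4.37, 5.25 and 10.70 in the lean sham group (log2 4.44, SE 0.82, adjusted p = 7.43e-05). Its lean sham array 4 lay among the lean 80% values, and without that array the log2 fold change was 5.92, while it was 3.81 without lean sham array 2. Cyp4a14 was detected on 2 of the 4 lean sham arrays. Ppara itself did not pass (adjusted p = 0.988).

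**Figure D2:**
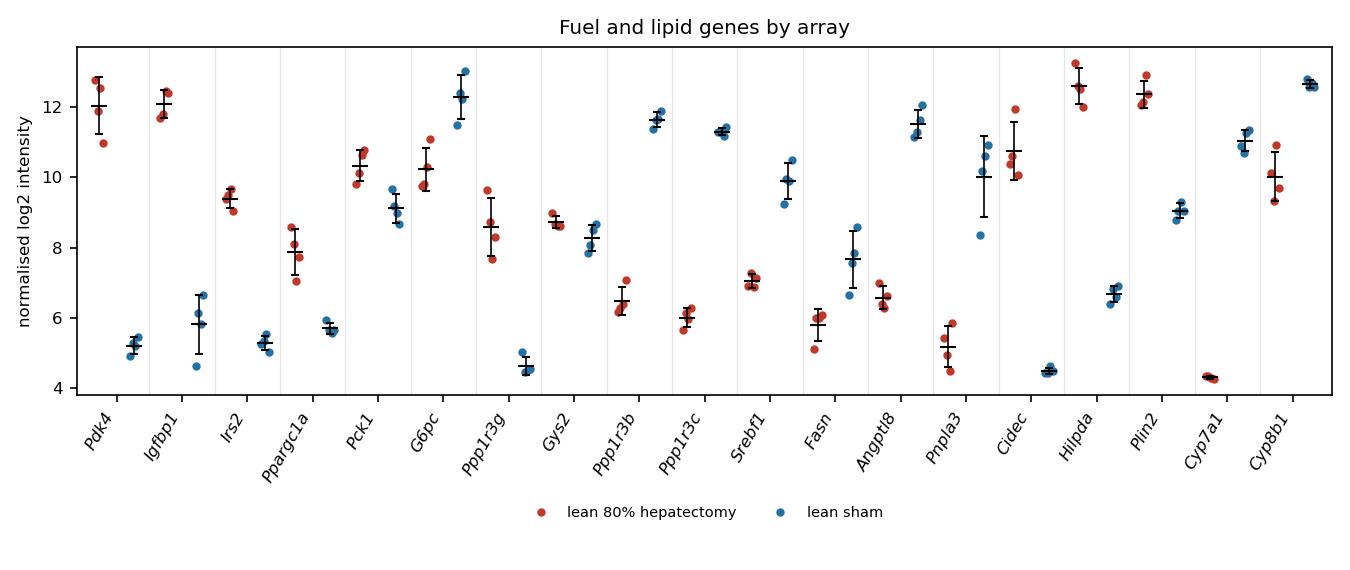
Normalised log2 intensity of genes of fuel choice, glycogen, lipid and bile acid metabolism on each of the 4 lean 80% hepatectomy arrays (red, left) and the 4 lean sham arrays (blue, right), with the group mean and its SD as a black bar. Pdk4, Igfbp1, Irs2, Cidec, Hilpda and Plin2 lie higher and Ppp1r3b, Ppp1r3c, Srebf1, Angptl8, Pnpla3, Cyp7a1 and Cyp8b1 lower after hepatectomy with no overlap of the arrays.

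Genes of cholesterol synthesis fell. Of 18 measured members 10 fell, 1 rose and 7 did not pass, at a median of -0.79. Sc5d, a late sterol desaturase, read 4.50, 4.50, 4.90 and 4.60 on the lean 80% arrays, against 7.92, 7.93, 8.05 and 8.51 on the lean sham arrays, with detection on 1 array after hepatectomy (log2 -3.48, SE 0.18, adjusted p = 1.03e-13). Mvd, of the mevalonate branch, was detected on no lean 80% array and was at least 5.66-fold lower (adjusted p = 7.06e-10).

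Fdps had values of 9.83, 10.09, 10.26 and 12.04 after 80% hepatectomy, against 12.88, 12.15, 12.71 and 12.40 after sham surgery (log2 -1.98, SE 0.38, adjusted p = 0.000109, another probe -3.51), and Sqle, the first oxygenase of the sterol branch, measured 6.66, 7.07, 7.65 and 8.51 in lean 80% livers, against 9.51, 8.92, 9.56 and 9.23 in lean sham livers (log2 -1.83, SE 0.40, adjusted p = 0.000408). In both genes lean 80% array 4 read highest of its group. The cholesterol carrier Stard4 (-2.30), Lss (-1.45, another probe -0.19 with adjusted p = 0.241) and Dhcr7 (-1.20) fell. Srebf2, the transcription factor of this pathway, did not pass (log2 -0.05, adjusted p = 0.784, another probe -0.38 with adjusted p = 0.00775), nor did Insig1 (log2 0.06, adjusted p = 0.884, other probes -1.12 with adjusted p = 0.000364 and -1.07 with adjusted p = 0.000656), so that the other probes of both genes were called lower. Insig2, the other retention protein of the sterol sensor, was the 1 member that rose: it stood at 12.87, 13.14, 12.78 and 13.50 in the lean 80% group, against 10.36, 11.04, 11.06 and 9.75 in the lean sham group (5.73-fold higher, log2 2.52, SE 0.23, adjusted p = 2.99e-09, another probe 3.96).

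Bile acid synthesis fell at its entry. Cyp7a1, the rate-limiting enzyme, read 4.35, 4.35, 4.30 and 4.26 on the lean 80% arrays, against 10.88, 10.71, 11.26 and 11.35 on the lean sham arrays. No lean 80% array detected it, so that it was at least 75.0-fold lower (adjusted p = 6.59e-09), the largest fall of all genes without overlap. Cyp8b1, which sets the share of cholic acid, had values of 10.12, 9.32, 10.93 and 9.71 after 80% hepatectomy, against 12.81, 12.58, 12.70 and 12.58 after sham surgery (6.26-fold lower, log2 -2.65, SE 0.34, adjusted p = 5.94e-07).

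Hsd3b7 (-1.56), the bile acid receptor Nr1h4 (-2.03) and the cholesterol exporter subunit Abcg8 (-1.71) fell. The uptake carrier Slc10a1 fell as well (-1.86) and passed detection on 3 arrays after hepatectomy, while the canalicular bile salt pump Abcb11 did not pass (log2 -0.24, adjusted p = 0.338). Slc51b, a subunit of the basolateral bile acid exporter, measured 8.40, 8.86, 5.53 and 8.85 in lean 80% livers, against 5.54, 6.11, 5.96 and 5.42 in lean sham livers (log2 2.15, SE 0.59, adjusted p = 0.00385). Lean 80% array 3 lay within the lean sham values, the log2 fold change was 2.95 without it, and with only lean 80% arrays 3 and 4, those of slide 4, the call was lost (log2 1.43, adjusted p = 0.105). Among the 23 measured bile acid genes 10 fell and 2 rose, and the number higher was 5 with lean 80% arrays 1 and 2 only, while neither call held with arrays 3 and 4 only.

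Amino acid catabolism was split. Of 35 measured members 9 rose, 16 fell and 10 did not pass (median -0.15). Aass, the first enzyme of lysine breakdown, stood at 11.22, 11.46, 11.84 and 11.75 in the lean 80% group, against 8.92, 8.74, 8.52 and 8.21 in the lean sham group (7.83-fold higher, log2 2.97, SE 0.20, adjusted p = 1.69e-11), and tyrosine aminotransferase Tat, a classic glucocorticoid target, read 8.57, 8.61, 8.49 and 8.70 on the lean 80% arrays, against 6.19, 6.38, 6.41 and 6.47 on the lean sham arrays (4.68-fold higher, log2 2.23, SE 0.16, adjusted p = 2.24e-11). The folate enzyme Shmt1 went the other way and had values of 6.54, 7.28, 7.88 and 7.42 after 80% hepatectomy, against 11.17, 11.25, 11.26 and 11.43 after sham surgery (log2 -3.998, SE 0.26, adjusted p = 8.63e-12, another probe -1.19).

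Cystathionine gamma-lyase Cth (2.01), the mitochondrial ornithine carrier Slc25a15 (1.39) and Tdo2 (0.86) rose, and proline oxidase Prodh fell (-1.82). The first urea cycle enzyme, Cps1, did not pass (log2 -0.11, adjusted p = 0.504, another probe -0.52 with adjusted p = 0.0188). Among 12 measured amino acid and glucose transporters 6 rose and 2 fell. The rises were led by Slc38a2 (2.12, another probe 0.54), a carrier of neutral amino acids, and Slc3a2 (1.96), a subunit of amino acid carriers.

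Among enzymes of foreign compound metabolism, cytochromes P450 of families 1 to 3 were counted. Of 29 measured ones 2 rose and 11 fell, with a median of -0.22, beside 23.7% higher and 30.8% lower over all genes. With upper-quartile scaling 4 rose and 4 fell. Cyp2b10, the usual target of the receptor Nr1i3, measured 10.47, 11.29, 11.80 and 10.50 in lean 80% livers, against 8.04, 8.49, 8.75 and 7.45 in lean sham livers (7.11-fold higher, log2 2.83, SE 0.28, adjusted p = 6.25e-09, another probe 0.39), although Nr1i3 itself fell (-1.07). Cyp2e1, near the top of the scale in both groups, did not pass (log2 -0.16, adjusted p = 0.139).

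Of 22 measured hepatocyte transcription factors and nuclear receptors 8 rose and 12 fell, and the number higher was 4 with lean 80% arrays 1 and 2 only and 5 with slides as random blocks. Foxa3 (-1.87), Foxa2 (-1.61, detected on 2 of the 4 lean 80% arrays), Tef (-1.57), the oxysterol receptor Nr1h3 (-1.41) and the clock output factor Dbp (-1.38) fell, whereas Cebpb, an acute response factor, rose (1.41). Hnf4a, the central hepatocyte factor, rose slightly (0.45), and with lean 80% arrays 1 and 2 only its adjusted p was 0.0512. Clock genes showed no common direction: 4 of 14 rose, among them Per1 (1.07), and 3 fell, among them Per2 (-0.93), with 5 lower when lean 80% arrays 1 and 2 stood alone. In the growth hormone axis, Igfals, which holds circulating Igf1 in its complex, fell (-1.87) with the receptor Ghr (-0.70, other probes -2.98 and 0.05 with adjusted p = 0.765), while Igf1 did not pass (log2 0.06, adjusted p = 0.710, another probe 0.28 with adjusted p = 0.0308). In this list of the IGF system and hepatokines, 6 of 18 rose and 5 fell.

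Most genes of the housekeeping machinery did not pass by their brightest probe, on which the counts here rest. Some members counted as not passing have a further probe that passed, and a proteasome subunit called lower has a further probe called higher. Of 31 measured respiratory chain subunits 26 did not pass, 1 rose and 4 fell. The number lower ranged from 1 to 9 over the alternatives, with 2 without lean 80% array 3 or without lean sham array 2 or 3. The number higher reached 5 with upper-quartile scaling, 4 with lean 80% arrays 3 and 4 only, 3 without lean 80% array 1 and 2 without lean sham array 1, and the rise was lost without lean 80% array 3 or 4 or lean sham array 2, 3 or 4. Of 25 cytosolic ribosomal proteins 22 did not pass, 1 rose and 2 fell, but 3 rose without lean sham array 1 or with lean 80% arrays 1 and 2 only, 2 without lean 80% array 4 and 9 with upper-quartile scaling, and the rise was lost without lean 80% array 2 or lean sham array 3. Of 27 proteasome subunits 4 rose and 7 fell, and the number lower was 4 without lean 80% array 2 or without lean sham array 4 and 2 with upper-quartile scaling.

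The immediate early genes had the largest share of rising members of all lists. Of 21 measured members 20 rose and the remaining one, Egr3, did not pass, at a median log2 fold change of 2.29 (2.21 with members below detection in sham livers set to their bound). Fos, a subunit of the AP-1 transcription factor, stood at 10.02, 11.19, 10.47 and 8.97 in the lean 80% group, against 4.42, 5.73, 4.95 and 5.40 in the lean sham group, where it was detected on 3 of 4 (32.8-fold higher, log2 5.04, SE 0.35, adjusted p = 2.28e-11). Egr1, which growth factor signals induce within minutes, read 13.19, 13.32, 12.36 and 11.98 on the lean 80% arrays, against 6.67, 8.68, 9.03 and 8.54 on the lean sham arrays (22.4-fold higher, log2 4.48, SE 0.37, adjusted p = 4.82e-10). Arrays 1 and 2 of the lean 80% group read higher than arrays 3 and 4 in Egr1, and all 4 lay above every lean sham array in both genes.

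Atf3, a stress-induced partner of Jun, had values of 8.92, 8.93, 9.30 and 7.91 after 80% hepatectomy, against 4.33, 4.50, 4.60 and 4.78 after sham surgery, where no array detected it (at least 14.9-fold higher, adjusted p = 3.27e-12). Myc, a driver of growth, was likewise below detection in all lean sham livers and was at least 1.81-fold higher (adjusted p = 6.11e-07). Junb (3.91), Klf6 (3.52, another probe 1.97), Ier3 (3.51), Fosl2 (2.71), Jun (2.43) and Srf (2.29, another probe 0.24 with adjusted p = 0.0951) rose as well.

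Phosphatases that switch MAP kinases off rose with them, 7 of 11 measured inhibitors, while 4 did not pass. Dusp8 was below detection in lean sham livers and at least 12.6-fold higher (adjusted p = 1.13e-13). Dusp5 rose (2.88) from detection on 1 lean sham array, and Dusp4 (2.86, another probe 0.62) and Dusp6 (1.06) rose too. Dusp1, itself an immediate early gene in many tissues, read high in both groups and did not pass (log2 0.13, adjusted p = 0.677).

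Ligands of the receptor Met and of the EGF receptor rose. Hgf, the ligand of Met made by stellate and endothelial cells, measured 7.70, 7.78, 7.24 and 7.19 in lean 80% livers, against 6.07, 6.25, 6.39 and 6.13 in lean sham livers (2.40-fold higher, log2 1.26, SE 0.15, adjusted p = 1.14e-07). The EGF receptor ligand Hbegf stood at 7.43, 6.89, 5.75 and 6.06 in the lean 80% group, against 4.70, 4.66, 5.13 and 4.59 in the lean sham group, where it was detected on 1 array (log2 1.76, SE 0.29, adjusted p = 1.72e-05), and Btc rose too (1.28, detected on 3 lean sham arrays). Plat, a protease that can activate Hgf, was at least 1.94-fold higher (adjusted p = 8.80e-06), whereas the receptor Egfr did not pass (log2 0.16, adjusted p = 0.569). Of 15 measured members of these families 8 rose and 2 fell (1 without lean 80% array 1 or 4 or lean sham array 4).

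An activin antagonist of the TGF-beta superfamily rose, while the list of this pathway showed no common direction. Fst, follistatin, which traps activins, read 8.92, 9.76, 9.13 and 8.47 on the lean 80% arrays, against 4.79, 4.79, 5.67 and 4.69 on the lean sham arrays, where it was detected on array 3 only (log2 4.09, SE 0.26, adjusted p = 3.15e-12). The activin subunits Inhba (-2.03, detected on 3 lean 80% arrays) and Inhbc (-1.54) fell. Id3 (1.29) and Id1 (0.99), targets of BMP signals, rose among 7 of 20 members higher, with 4 lower and 9 not passing (median -0.01).

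**Figure D3:**
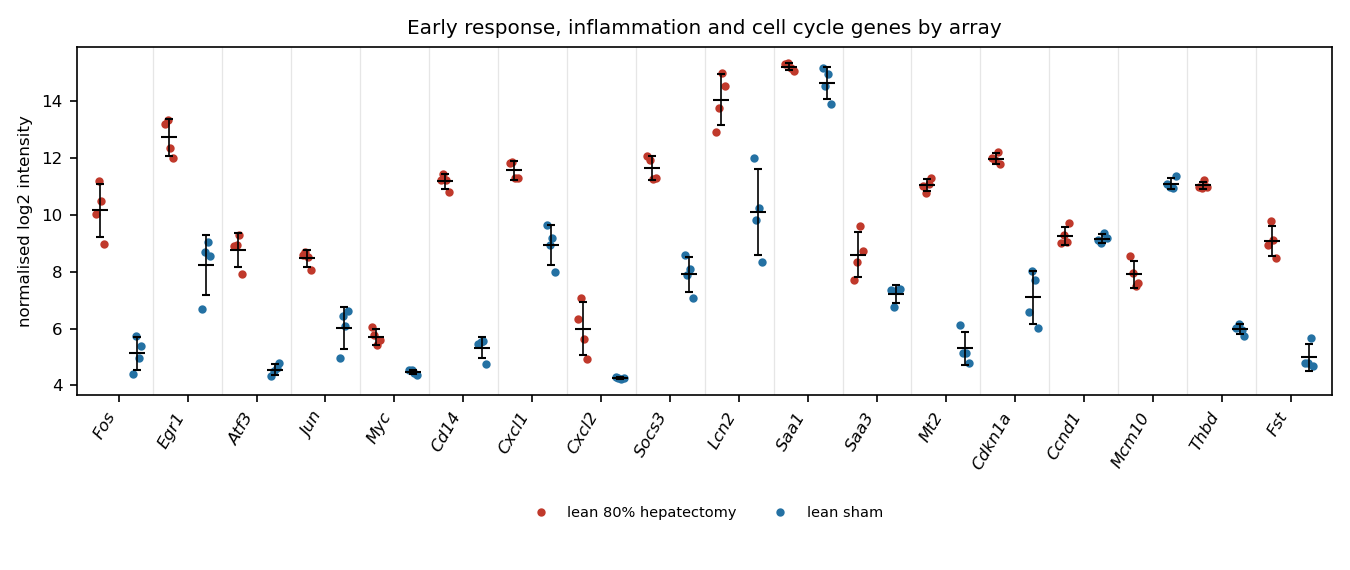
Normalised log2 intensity of early response, inflammation, metal response and cell cycle genes on each of the 4 lean 80% hepatectomy arrays (red, left) and the 4 lean sham arrays (blue, right), with the group mean and its SD as a black bar. Fos, Egr1, Atf3, Cd14, Socs3, Mt2, Cdkn1a and Thbd lie higher and Mcm10 lower after hepatectomy with no overlap, while Ccnd1 overlaps and Saa1 lies near the top of the scale in both groups.

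Most measured genes of IL-6 and STAT3 signalling rose as RNA, and the activity of the pathway was not tested. Socs3, the feedback inhibitor that STAT3 induces, had values of 12.05, 11.93, 11.24 and 11.30 after 80% hepatectomy, against 8.57, 7.87, 8.10 and 7.08 after sham surgery (13.2-fold higher, log2 3.73, SE 0.25, adjusted p = 1.18e-11), and Stat3 itself measured 11.08, 11.25, 11.25 and 11.24 in lean 80% livers, against 9.89, 9.42, 10.08 and 9.41 in lean sham livers (2.84-fold higher, log2 1.51, SE 0.14, adjusted p = 2.39e-09). The shared receptor chain Il6st (1.04), the oncostatin receptor Osmr (2.18, detected on 3 lean sham arrays), Socs2 (2.47) and the kinase Pim3 (2.47) rose, and the kinase Tyk2 fell (-1.14). Il6 was detected on 2 of the 4 lean 80% arrays and on no lean sham array, too dim for a fold change, and its call (adjusted p = 0.0394) was lost without any single array of the 8 except lean 80% array 3. In all 11 of 17 measured members rose and 1 fell (median 0.56, and 0.53 with genes below detection at their bound).

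Acute phase genes, the plasma proteins that hepatocytes make in inflammation, rose in 15 of 23 cases, fell in 1 (2 without lean 80% array 4) and did not pass in 7, with a median of 0.57. Lcn2, which binds bacterial iron carriers, stood at 12.91, 13.75, 14.96 and 14.51 in the lean 80% group, against 11.996, 9.80, 10.22 and 8.32 in the lean sham group (15.4-fold higher, log2 3.95, SE 0.48, adjusted p = 2.30e-07). The lean sham values spread widely, and the log2 fold change was 3.36 without lean sham array 4 and 4.58 without lean sham array 1. The fibrinogen chain Fgb (2.52), the metal reductase Steap4 (3.66, detected on 3 lean sham arrays, another probe 0.20 with adjusted p = 0.303), Serpina3n (1.58) and Orm2 (1.45) rose.

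Among the serum amyloid genes Saa2 rose and Saa4 fell. Saa2 read 10.80, 11.02, 11.01 and 10.95 on the lean 80% arrays, against 10.03, 8.29, 9.31 and 7.96 on the lean sham arrays (log2 2.05, SE 0.31, adjusted p = 5.69e-06), and Saa4 was the 1 member that fell (-2.33). Saa1 lay close to the top of the scale in both groups, at 15.30, 15.32, 15.14 and 15.04 in lean 80% livers and 15.16, 14.52, 14.95 and 13.90 in lean sham livers (log2 0.57, SE 0.20, adjusted p = 0.0198, another probe 2.09), and lost its call without lean 80% array 2 (adjusted p = 0.0506) or lean sham array 4 (adjusted p = 0.130). Saa3 had values of 7.69, 8.35, 9.60 and 8.73 after 80% hepatectomy, against 7.35, 6.76, 7.36 and 7.41 after sham surgery (log2 1.37, SE 0.46, adjusted p = 0.0158), and lost its call without lean 80% array 3 (log2 1.04, adjusted p = 0.0735). Saa1 and Saa2 are near-identical genes, as are some of the acyl-CoA thioesterases above, and cross-hybridisation of their probes was not tested.

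Metallothioneins, small proteins that buffer zinc and copper, rose strongly. Mt2 measured 11.01, 10.77, 11.09 and 11.29 in lean 80% livers, against 6.14, 5.13, 5.16 and 4.79 in lean sham livers, where it was detected on 3 of 4 (53.3-fold higher, log2 5.74, SE 0.22, adjusted p = 7.16e-16). Mt1 lay near the top of the scale after hepatectomy, with 15.23, 15.05, 14.99 and 15.08 in lean 80% livers and 13.36, 11.53, 11.36 and 10.85 in lean sham livers (log2 3.31, SE 0.32, adjusted p = 4.72e-09). The zinc importer Slc39a14, which IL-6 induces in hepatocytes, rose (2.65), and the iron exporter Slc40a1 fell (-2.32). Across the 19 measured genes of metal handling 5 rose and 3 fell, and the number higher was 8 with upper-quartile scaling.

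The promoters of both metallothioneins are shown because these neighbouring genes rose together. They run from 250 bases before to 50 bases after the RefSeq start, 5′ to 3′ on the gene's own strand, GRCm38.p6, with the core of the metal response element, TGCGCNC or TGCACNC on either strand, in capitals. The Mt2 window lies at chr8:94172368-94172667 and the Mt1 window at chr8:94178839-94179138, both on the plus strand. Mt2 holds 4 matches and Mt1 holds 3, counted with overlaps. Such a match is common, with 28.2% of the 27025 genes with a promoter holding one, and of the 13 measured metal genes with a promoter entry 5 held one, so a match is a description only.
Mt2: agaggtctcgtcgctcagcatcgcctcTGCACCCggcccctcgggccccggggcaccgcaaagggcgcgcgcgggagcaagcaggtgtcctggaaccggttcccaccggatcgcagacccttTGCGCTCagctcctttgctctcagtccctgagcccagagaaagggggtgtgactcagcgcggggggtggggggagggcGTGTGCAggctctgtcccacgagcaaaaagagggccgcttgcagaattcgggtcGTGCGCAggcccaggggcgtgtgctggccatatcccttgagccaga
Mt1: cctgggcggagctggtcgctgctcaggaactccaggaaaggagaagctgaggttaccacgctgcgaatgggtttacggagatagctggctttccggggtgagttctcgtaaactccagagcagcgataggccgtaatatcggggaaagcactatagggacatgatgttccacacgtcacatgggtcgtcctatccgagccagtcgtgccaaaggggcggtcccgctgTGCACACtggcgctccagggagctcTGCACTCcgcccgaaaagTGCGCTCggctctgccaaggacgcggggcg

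Genes of endotoxin sensing and the NF-kB feedback loop rose in 12 of 18 cases (median 0.82, and 0.78 with genes below detection at their bound). The 6 others did not pass, of which 1 was lower without lean sham array 2. Cd14, the co-receptor that hands endotoxin to Tlr4, stood at 11.23, 11.42, 11.23 and 10.81 in the lean 80% group, against 5.45, 5.53, 5.57 and 4.77 in the lean sham group, where it was detected on 3 of 4 (57.3-fold higher, log2 5.84, SE 0.20, adjusted p = 5.68e-17). Tlr4 read close to the detection limit in both groups and did not pass (log2 0.04, adjusted p = 0.846). The inhibitors Nfkbia (1.07), Nfkbiz (1.99), Nfkbib (2.15), Irak3 (1.77, detected on 3 lean sham arrays) and Tnfaip3 (1.27, detected on 1 lean sham array) rose.

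Of 22 measured cytokines and chemokines 12 rose, 1 fell and 9 did not pass. The median was 0.47, but 0 with genes below detection at their bound. The number lower was 2 without lean sham array 2 or with the spread taken from the arrays compared. The neutrophil attractant Cxcl1 read 11.83, 11.85, 11.28 and 11.28 on the lean 80% arrays, against 9.64, 8.93, 9.17 and 8.001 on the lean sham arrays (6.16-fold higher, log2 2.62, SE 0.27, adjusted p = 1.62e-08). Cxcl2, a second such attractant, had values of 6.33, 7.09, 5.62 and 4.92 after 80% hepatectomy, against 4.31, 4.25, 4.22 and 4.25 after sham surgery, where no array detected it (at least 2.19-fold higher, adjusted p = 0.000105). Its lean 80% values were higher on arrays 1 and 2, on slide 3, than on arrays 3 and 4, on slide 4. Ccl7 was at least 2.32-fold higher (adjusted p = 2.23e-06). Il1rn, the antagonist of the IL-1 receptor, rose (2.18, detected on 2 lean sham arrays, another probe 0.80). Cxcl12, which retains leukocytes and progenitors, fell (-1.34).

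Neutrophil markers moved with these genes. Of the 13 listed markers 12 had a probe and 6 were measured, and 5 of the 6 rose. Their mean over the 6 ranged from 6.36 to 7.49 on the lean 80% arrays, against 4.75 to 5.18 on the lean sham arrays. S100a8 measured 9.58, 10.76, 10.48 and 9.21 in lean 80% livers, against 6.55, 5.28, 5.72 and 5.69 in lean sham livers (18.3-fold higher, log2 4.20, SE 0.35, adjusted p = 5.92e-10), and S100a9 rose as well (3.91, detected on 2 lean sham arrays), while the granule genes Mpo, Elane, Ltf, Camp, Ngp and Mmp8 were not detected on enough arrays to be measured. Prtn3, a protease of neutrophil precursors outside this list, fell (-1.79). It lost its call without lean sham array 1 (log2 -1.08, adjusted p = 0.093) or with lean 80% arrays 3 and 4 only (log2 -1.45, adjusted p = 0.119). The part of neutrophils in the changes of Cd14, Lcn2 and the chemokines was not tested.

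The promoters of 3 genes of this group are shown with the kappaB site that NF-kB can bind, GGGA, any base and TTTCC on either strand, in capitals. The Cxcl1 window lies at chr5:90890995-90891294 and the Cxcl2 window at chr5:90903649-90903948, both on the plus strand, and the Nfkbia window at chr12:55492598-55492897 on the minus strand, each printed on the gene's own strand with the build and extent given for the metallothioneins. This site occurs in the windows of 0.466% of genes. Of the 28 measured NF-kB, cytokine and chemokine genes with a promoter entry 6 held it, among them Nfkb2, Csf1 and Il6, whereas Tnfaip3 and Il1rn rose with no such letters in this window.
Cxcl1: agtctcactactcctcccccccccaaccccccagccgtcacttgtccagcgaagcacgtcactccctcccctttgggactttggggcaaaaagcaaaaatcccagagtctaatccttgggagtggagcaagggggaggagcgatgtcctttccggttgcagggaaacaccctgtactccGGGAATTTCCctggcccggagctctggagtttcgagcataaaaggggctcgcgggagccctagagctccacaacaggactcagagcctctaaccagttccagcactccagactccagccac
Cxcl2: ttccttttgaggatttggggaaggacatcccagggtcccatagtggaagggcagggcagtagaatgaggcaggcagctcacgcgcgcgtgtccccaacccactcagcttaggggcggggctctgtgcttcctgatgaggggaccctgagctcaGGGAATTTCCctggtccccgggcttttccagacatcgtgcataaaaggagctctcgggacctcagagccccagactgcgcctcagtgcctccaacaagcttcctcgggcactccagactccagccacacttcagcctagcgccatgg
Nfkbia: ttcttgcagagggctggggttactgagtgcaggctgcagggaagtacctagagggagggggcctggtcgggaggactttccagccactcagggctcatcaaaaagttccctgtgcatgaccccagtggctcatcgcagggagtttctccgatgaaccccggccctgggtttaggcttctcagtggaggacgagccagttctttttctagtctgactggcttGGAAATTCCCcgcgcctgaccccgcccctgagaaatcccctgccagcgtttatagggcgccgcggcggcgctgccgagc

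Stress pathways showed no common direction. Of 26 measured genes of the unfolded protein and integrated stress responses 9 rose, 7 fell and 10 did not pass (median 0.16). Over all genes 23.7% were higher and 30.8% lower, so these shares are not far from that background. With genes below detection at their bound the median was 0.05. The number higher was 5 with lean 80% arrays 1 and 2 only and the number lower 3 with arrays 3 and 4 only. Chac1, which degrades glutathione and is a target of ATF4, stood at 10.84, 10.90, 10.81 and 10.65 in the lean 80% group, against 7.77, 7.62, 7.73 and 7.60 in the lean sham group (8.69-fold higher, log2 3.12, SE 0.19, adjusted p = 1.42e-12). Asns, asparagine synthetase, another ATF4 target, read 7.52, 7.77, 7.71 and 8.57 on the lean 80% arrays, against 6.59, 5.90, 6.48 and 5.65 on the lean sham arrays (log2 1.74, SE 0.21, adjusted p = 1.85e-07).

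Ppp1r15a (1.43), the feedback phosphatase subunit of this response, and the chaperone Hspa5 (1.26) rose. Trib3 overlapped between the groups (log2 0.89, SE 0.33, adjusted p = 0.0266, another probe -0.05 with adjusted p = 0.805), and its log2 fold change was 0.13 (adjusted p = 0.749) with lean 80% arrays 1 and 2 only, 0.53 (adjusted p = 0.156) without lean 80% array 4 and not called without lean 80% array 3 or lean sham array 2, 3 or 4. Ddit3, the death-associated factor, did not pass (log2 -0.04, adjusted p = 0.902, another probe -0.87 with adjusted p = 0.00792), and the sensor Ern1 fell (-1.78). Among 16 heat shock proteins 7 rose, such as the small Hspb8 (1.28) and Hspb1 (1.11), and 6 fell, such as the co-chaperone Dnajb1 (-1.13).

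The promoters of Chac1, Asns and Atf3 are shown with the core of the C/EBP-ATF response element, TGATGNAA on either strand, in capitals. The windows lie at chr2:119350992-119351291 on the plus strand for Chac1, at chr6:7693160-7693459 on the minus strand for Asns and at chr1:191183284-191183583 on the minus strand for Atf3. This core occurs in the windows of 4.51% of genes, and 4 of the 23 measured stress response genes with a promoter entry held it, the other two besides Chac1 and Asns being Trib3 and Herpud1, of which Herpud1 fell (-0.95).
Chac1: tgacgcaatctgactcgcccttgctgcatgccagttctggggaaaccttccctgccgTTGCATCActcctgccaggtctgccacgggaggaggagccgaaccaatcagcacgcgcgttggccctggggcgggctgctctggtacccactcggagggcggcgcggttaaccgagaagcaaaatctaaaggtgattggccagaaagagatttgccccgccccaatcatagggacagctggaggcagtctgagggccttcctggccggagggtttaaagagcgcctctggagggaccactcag
Asns: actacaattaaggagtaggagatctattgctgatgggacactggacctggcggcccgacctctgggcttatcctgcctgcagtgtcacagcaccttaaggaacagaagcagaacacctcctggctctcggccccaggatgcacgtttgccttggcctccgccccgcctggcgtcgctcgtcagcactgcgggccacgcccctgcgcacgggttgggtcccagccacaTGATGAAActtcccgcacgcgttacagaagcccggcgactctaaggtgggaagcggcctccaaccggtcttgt
Atf3: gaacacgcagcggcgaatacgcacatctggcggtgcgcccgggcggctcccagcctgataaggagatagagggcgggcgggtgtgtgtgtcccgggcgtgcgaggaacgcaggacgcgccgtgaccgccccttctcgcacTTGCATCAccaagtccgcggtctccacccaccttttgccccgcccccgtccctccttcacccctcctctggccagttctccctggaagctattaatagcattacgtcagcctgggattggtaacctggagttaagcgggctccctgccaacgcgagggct

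Targets of the oxidative stress factor NRF2 rose in 6 of 16 cases and fell in 3, though in 1 without lean 80% array 2 or 3 or without lean sham array 3. The sulfiredoxin Srxn1 had values of 11.02, 11.50, 10.12 and 11.06 after 80% hepatectomy, against 8.15, 7.82, 8.09 and 8.21 after sham surgery (7.25-fold higher, log2 2.86, SE 0.27, adjusted p = 3.50e-09). Heme oxygenase Hmox1 rose (2.56, detected on 3 lean sham arrays), as did thioredoxin reductase Txnrd1 (1.73).

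Cell cycle genes showed an inhibitor up and replication genes down. Cdkn1a, the p21 inhibitor of cyclin-dependent kinases, measured 11.98, 11.90, 12.21 and 11.78 in lean 80% livers, against 6.60, 8.02, 7.72 and 6.03 in lean sham livers (29.4-fold higher, log2 4.88, SE 0.28, adjusted p = 6.39e-13). Ccnd1, the cyclin of the G1 phase, stood at 9.01, 9.28, 9.02 and 9.70 in the lean 80% group, against 9.10, 8.99, 9.36 and 9.19 in the lean sham group, with overlapping values (log2 0.09, adjusted p = 0.720, another probe 0.54 with adjusted p = 0.0425). Of 14 measured D cyclins, CDK inhibitors and their partners 2 rose and 5 fell. The number lower was 3 without lean 80% array 3 or without array 4, and the 5 lower calls were lost with arrays 1 and 2 only.

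Of 21 measured genes of DNA replication and mitosis 11 fell, 1 rose and 9 did not pass (median -0.41, and -0.13 with genes below detection at their bound). Mcm10, a factor of replication origins, read 8.55, 7.96, 7.50 and 7.60 on the lean 80% arrays, against 11.09, 10.99, 10.94 and 11.36 on the lean sham arrays (9.12-fold lower, log2 -3.19, SE 0.32, adjusted p = 8.21e-09). E2f2 fell (-1.09, detected on 1 lean 80% array), as did Rrm2 (-1.23, detected on 3), Mcm5 (-1.07) and Cdk2 (-1.05, another probe -0.11 with adjusted p = 0.502). The sliding clamp Pcna was the 1 member that rose (0.85).

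Of 17 measured p53 targets 11 rose and 3 fell (median 0.48). Trp53inp1 had values of 11.26, 10.63, 9.49 and 10.46 after 80% hepatectomy, against 8.41, 8.21, 8.34 and 8.29 after sham surgery (4.42-fold higher, log2 2.15, SE 0.23, adjusted p = 2.72e-08), and Plk3 (2.43) and Gadd45a (1.71) rose. The pro-death Bbc3 (-1.26, other probes 0.08 with adjusted p = 0.659 and -0.05 with adjusted p = 0.803), Ccng1 (-0.90, another probe -0.21 with adjusted p = 0.210) and Sesn1 (-0.86) fell.

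Genes of ribosome biogenesis rose. Of 34 measured ribosome biogenesis genes 25 rose and 8 did not pass (median 0.60). Heatr1, of the early pre-ribosome, ranged over 11.99 to 12.70 on the lean 80% arrays and 9.86 to 10.09 on the lean sham arrays (5.14-fold higher, log2 2.36, SE 0.16, adjusted p = 8.61e-12), and Nop58, a core protein of small nucleolar particles, measured 9.52, 9.67, 9.64 and 9.72 in lean 80% livers, against 7.36, 7.68, 7.59 and 8.02 in lean sham livers (3.94-fold higher, log2 1.98, SE 0.13, adjusted p = 5.78e-12). Utp15 (1.23, detected on 3 lean sham arrays) and the helicase Ddx21 (1.14) rose as well. The 1 member called lower, Tsr1 (-0.61, another probe 0.82 with adjusted p = 4.45e-05), is read by probes that changed in opposite directions, and 3 members were lower without lean 80% array 3 and 2 without lean sham array 3. Of 5 measured polyamine genes 3 rose, among them the oxidase Smox (1.34) and ornithine decarboxylase Odc1 (0.74), and 1 fell.

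Genes driven by SRF and YAP and genes of the matrix rose in 19 of 29 cases, with 10 not passing (median 0.87). With genes below detection at their bound the median was 0.71. Col4a1, a chain of basement membrane collagen, stood at 10.29, 10.18, 9.95 and 10.03 in the lean 80% group, against 7.62, 7.27, 7.14 and 6.70 in the lean sham group (7.62-fold higher, log2 2.93, SE 0.15, adjusted p = 6.69e-14). Ccn2, a matrix protein and YAP target, read 9.88, 10.19, 11.36 and 9.99 on the lean 80% arrays, against 7.29, 7.43, 7.72 and 8.45 on the lean sham arrays (6.20-fold higher, log2 2.63, SE 0.29, adjusted p = 6.50e-08).

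Acta2 (2.87, other probes 0.22 with adjusted p = 0.494 and 1.06), the smooth muscle actin, Tpm4 (2.63, another probe 1.29), Ccn1 (2.64, detected on 1 lean sham array, another probe 1.20) and Ankrd1 (2.01) rose. The protease inhibitor Timp1 was at least 4.71-fold higher (adjusted p = 6.59e-11). The fibrillar collagen Col3a1 did not pass (log2 0.13, adjusted p = 0.821).

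In the coagulation and complement list 12 of 38 measured members fell and 6 rose, beside 30.8% lower and 23.7% higher over all genes. The share that fell was thus near that of all genes. The number lower was 7 with upper-quartile scaling, and the number higher 3 with lean 80% arrays 1 and 2 only. F11 (-1.02), Klkb1 (-0.98) and F7 (-0.91), all proteases made by hepatocytes, fell. Thbd, thrombomodulin, the endothelial anticoagulant receptor, had values of 10.97, 10.93, 11.22 and 10.98 after 80% hepatectomy, against 6.02, 6.17, 5.94 and 5.75 after sham surgery (33.2-fold higher, log2 5.05, SE 0.13, adjusted p = 1.71e-19). Its values spread little in either group, and its adjusted p was the smallest among the named genes.

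Markers of the other liver cells are given as their mean over the measured markers of a type. The 10 sinusoidal endothelial markers averaged 8.16 to 8.29 on the lean 80% arrays and 7.73 to 7.87 on the lean sham arrays. Of these, 4 were higher, among them Lyve1 (2.99) and Cdh5 (1.19), 3 were lower and 3 did not pass. Their median log2 fold change was 0.04, so the higher mean was not shared by the list as a whole. The 9 stellate cell markers averaged 7.89 to 8.12 on the lean 80% arrays and 7.44 to 7.57 on the lean sham arrays, with 6 higher, among them Hgf and Des (1.04). The part of stellate and endothelial cells in the rise of Hgf, Thbd and the matrix genes was not tested.

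Kupffer cell and macrophage markers averaged 7.35 to 7.68 on the lean 80% arrays and 7.53 to 8.10 on the lean sham arrays. Of 12 measured markers 3 were lower, among them the complement receptor Vsig4 (-1.18), but 6 were lower without lean sham array 4, 7 with the spread taken from the arrays compared and 1 with lean 80% arrays 1 and 2 only. Of the cholangiocyte markers 2 were measured, and Sox9 rose (1.90) with higher values on lean 80% arrays 1 and 2. The 4 measured lymphocyte markers averaged 4.52 to 4.84 on the lean 80% arrays and 4.66 to 5.06 on the lean sham arrays, close to the detection limit, and the 4 erythroid markers averaged 7.73 to 8.56 on the lean 80% arrays and 7.97 to 8.08 on the lean sham arrays. Mesothelial markers were not detected on enough arrays.

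**Figure D4:**
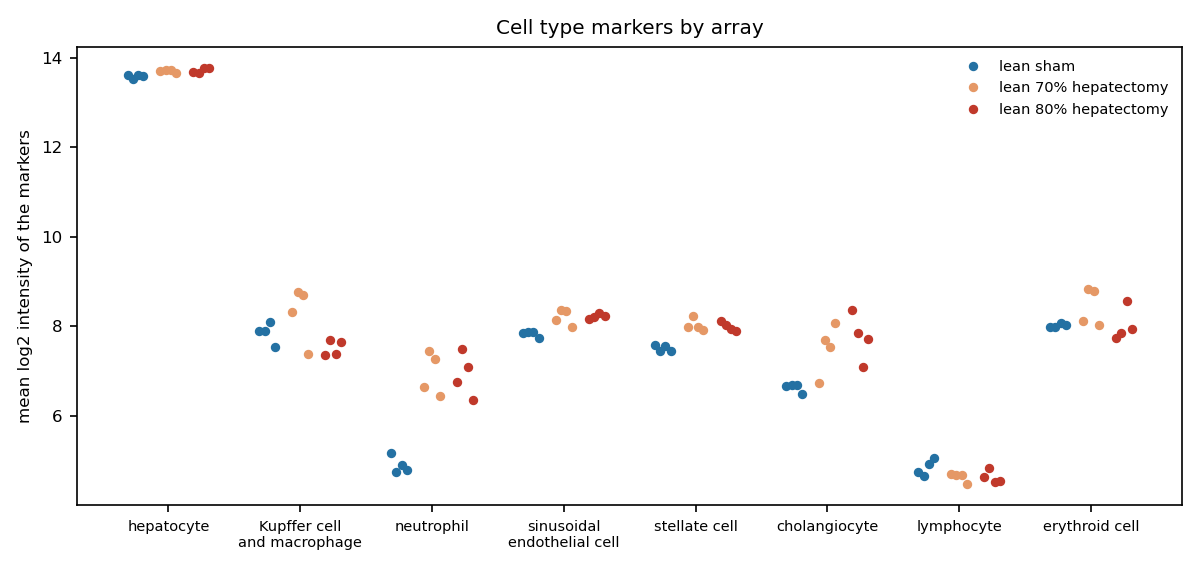
Mean log2 intensity of the measured markers of each cell type on each array of the lean sham (blue), lean 70% (orange) and lean 80% hepatectomy (red) groups, 4 arrays each, in order of resection size. Neutrophil markers lie at 6.36 to 7.49 on the lean 80% arrays, above the 4.75 to 5.18 of the lean sham arrays, and Kupffer cell markers of lean 80% arrays lie at 7.35 to 7.68.

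The remaining genes with the largest changes have less settled roles in this setting. Ch25h, which makes 25-hydroxycholesterol, measured 9.99, 10.03, 9.34 and 9.36 in lean 80% livers, against 4.31, 4.28, 4.50 and 4.35 in lean sham livers, where no array detected it (at least 28.2-fold higher, adjusted p = 8.88e-15). Enc1, an actin-binding adaptor, stood at 10.12, 10.20, 10.05 and 9.91 in the lean 80% group, against 4.65, 4.67, 4.93 and 5.03 in the lean sham group, where it was detected on 2 of 4 (log2 5.25, SE 0.16, adjusted p = 3.30e-18). Wdr92, a WD repeat protein, read 10.90, 11.35, 11.69 and 11.37 on the lean 80% arrays, against 5.88, 6.26, 6.23 and 6.24 on the lean sham arrays (36.1-fold higher, log2 5.17, SE 0.20, adjusted p = 6.62e-16, another probe -0.19 with adjusted p = 0.165).

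Among the falls, Dclk3, a kinase of the doublecortin family, had values of 4.53, 4.28, 4.57 and 4.49 after 80% hepatectomy, against 8.97, 8.60, 8.98 and 8.85 after sham surgery. With all lean 80% arrays below detection, the fall was at least 16.3-fold (adjusted p = 1.37e-18). Fam214a (-4.40, another probe -1.60), Tmem25 (-4.22, other probes -0.61 and -0.45) and Keg1 (-4.01) fell without overlap. The scaffold Akap12 rose (4.03).

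The larger resection was set directly against the smaller one in lean mice, lean 80% against lean 70%. Of 10763 genes 1819 differed (16.9%), 773 higher (7.18%) and 1046 lower (9.72%), and 49 (0.455%) were higher and 111 (1.03%) lower at least 2-fold. When the spread was taken from these 8 arrays alone, 509 genes passed, and with slides as random blocks 909 did. Without lean 70% array 3, 1172 genes passed (496 higher, 676 lower), and without lean 80% array 2 492 were higher. With upper-quartile scaling the balance turned, 818 higher and 773 lower. No slide held both groups, the lean 70% arrays all lying on slide 2, so slide and resection size cannot be told apart here either. The comparison shares its lean 80% arrays with the one above, and log2 differences below are lean 80% minus lean 70%.

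Several genes of the sham comparison were still higher after the larger resection. Irs2 read 9.38, 9.49, 9.66 and 9.04 on the lean 80% arrays and 6.998, 7.92, 7.44 and 8.54 on the lean 70% arrays (log2 1.67, SE 0.26, adjusted p = 8.60e-05), Ch25h read 9.99, 10.03, 9.34 and 9.36 on the lean 80% arrays and 7.68, 8.58, 7.70 and 8.71 on the lean 70% arrays (log2 1.51, SE 0.24, adjusted p = 0.000118), and Fst read 8.92, 9.76, 9.13 and 8.47 on the lean 80% arrays and 7.63, 7.18, 7.22 and 8.24 on the lean 70% arrays (log2 1.501, SE 0.26, adjusted p = 0.000275). The groups did not overlap in any of the 3 genes, and in each the lean 70% arrays lay between the lean sham arrays and the lean 80% arrays. Akap12 (log2 1.41, adjusted p = 0.000197), Socs2 (log2 1.33, adjusted p = 0.000358), Chac1 (log2 1.20, adjusted p = 9.84e-05) and Thbd (log2 0.98, adjusted p = 1.23e-05) were higher without overlap.

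Inmt and Hamp were lower than sham after the smaller resection and higher after the larger resection than after the smaller. Inmt, a methyltransferase of indoles, read 14.83, 15.005, 14.99 and 14.92 on the lean sham arrays, 13.18, 12.44, 11.53 and 12.95 on the lean 70% arrays and 14.17, 14.36, 13.98 and 13.71 on the lean 80% arrays (log2 1.53, SE 0.22, adjusted p = 3.54e-05). Hamp, the iron hormone hepcidin, read 13.93, 14.37, 14.44 and 14.35 on the lean sham arrays, 13.76, 12.39, 12.33 and 14.05 on the lean 70% arrays and 14.62, 14.44, 14.66 and 14.62 on the lean 80% arrays (log2 1.46, SE 0.25, adjusted p = 0.000284). Against sham, Hamp did not pass after 80% hepatectomy (log2 0.31, adjusted p = 0.302), although it did with upper-quartile scaling (log2 0.67, adjusted p = 0.0372). The pseudogene Serpina4-ps1 was also higher than after 70% hepatectomy (log2 1.81, adjusted p = 0.00420), as were Gys2 (log2 1.17, adjusted p = 0.000761) and Cyp2b10 (log2 1.27, adjusted p = 0.00270, another probe 0.37 with adjusted p = 0.0732). Fgf21 differed by log2 1.76 (adjusted p = 0.0221), but did not pass without lean 80% array 3 (log2 1.01, adjusted p = 0.0855) or without lean 70% array 2 (log2 1.44, adjusted p = 0.0855). Its call was also lost with slides as random blocks (adjusted p = 0.0576), with the spread of the compared arrays alone (0.121), with lean 80% arrays 1 and 2 only (0.178) and with no filter on dim probes (0.0587).

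Lower after the larger resection was Ccnd1, which read 9.01, 9.28, 9.02 and 9.70 on the lean 80% arrays and 10.56, 10.56, 10.35 and 10.41 on the lean 70% arrays (log2 -1.22, SE 0.20, adjusted p = 0.000185). The lean 70% arrays thus read higher than every lean 80% and every lean sham array. The acute phase gene Saa3 read 7.69, 8.35, 9.60 and 8.73 on the lean 80% arrays and 12.24, 12.24, 13.50 and 10.43 on the lean 70% arrays (log2 -3.51, SE 0.46, adjusted p = 1.37e-05). Prtn3, a protease of neutrophil precursors, read 4.45, 4.33, 4.46 and 5.69 on the lean 80% arrays and 8.83, 9.77, 9.08 and 6.12 on the lean 70% arrays, and was detected on 1 lean 80% array (log2 -3.72, SE 0.59, adjusted p = 0.000128). Without lean 70% array 4 its difference was -4.50.

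Spink1, a trypsin inhibitor, read 5.45, 5.40, 6.13 and 6.08 on the lean 80% arrays and 8.58, 9.76, 8.66 and 7.06 on the lean 70% arrays (log2 -2.75, SE 0.40, adjusted p = 4.70e-05). Bmx, a kinase of the Tec family, read 5.21, 5.75, 5.66 and 5.18 on the lean 80% arrays and 7.41, 7.69, 7.58 and 7.66 on the lean 70% arrays (log2 -2.13, SE 0.13, adjusted p = 5.07e-10). Bhmt, which remethylates homocysteine, read 8.64, 9.54, 9.92 and 10.75 on the lean 80% arrays and 12.60, 12.20, 11.64 and 11.25 on the lean 70% arrays (log2 -2.21, SE 0.41, adjusted p = 0.000654). These 3 genes did not overlap between the resections, and neither did Spon2 (log2 -1.82, adjusted p = 2.85e-05) or Sbspon, which no lean 80% array detected (at least 4.45-fold lower, adjusted p = 2.82e-09).

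The list counts of this comparison were not run under the alternatives, some of which moved its total of genes. By list, immediate early genes were higher after the larger resection in 9 of 21 cases, and the 12 others did not pass. Cholesterol synthesis genes were lower in 11 of 18 cases, Sqle among them (log2 -2.02, SE 0.40, adjusted p = 0.00113). With lean 80% arrays 3 and 4 only, Sqle no longer passed (log2 -1.41, adjusted p = 0.0509). Coagulation and complement genes were lower in 12 of 38 cases and higher in 1, and acute phase genes lower in 7 of 23 and higher in 1. Of the 12 measured Kupffer cell markers 11 were lower, and their mean was 7.35 to 7.68 on the lean 80% arrays and 7.38 to 8.76 on the lean 70% arrays, lean 70% array 4 being the low one. The neutrophil marker S100a8 did not pass (log2 -0.22, adjusted p = 0.713). The part of Kupffer cells and neutrophils in the differences above was not tested.

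**Figure D5:**
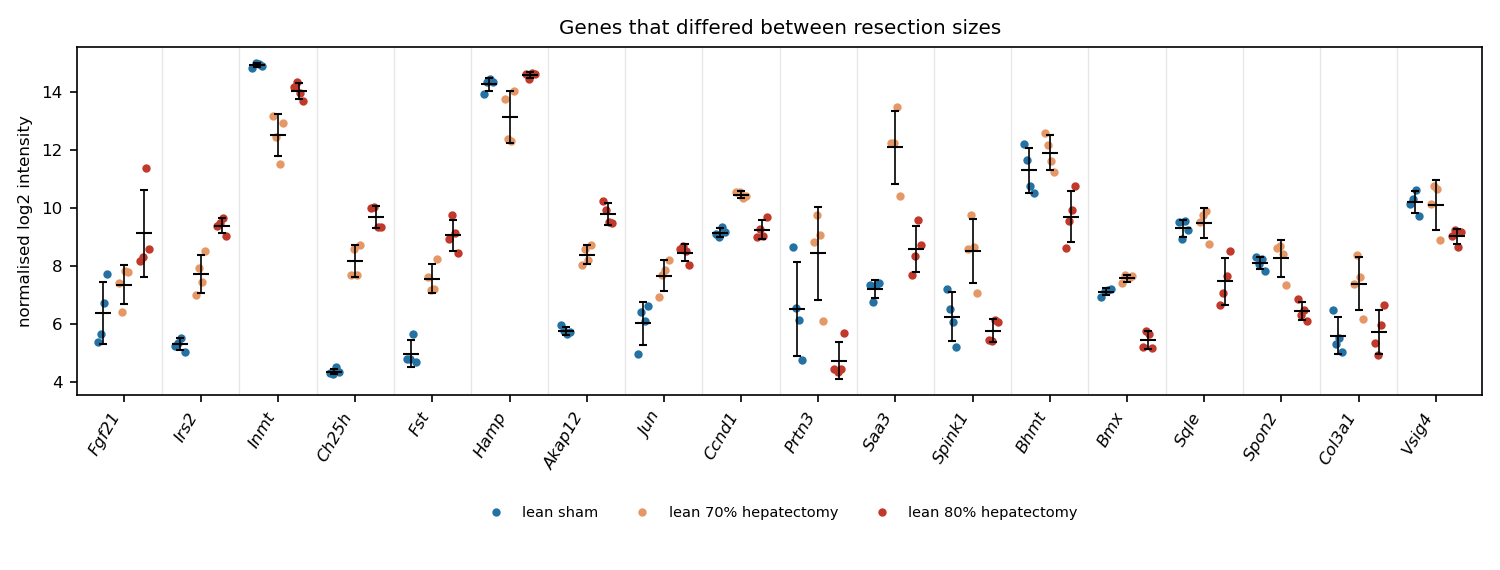
Normalised log2 intensity of genes that differed between lean 80% and lean 70% hepatectomy, on each of 4 lean sham arrays (blue), 4 lean 70% arrays (orange) and 4 lean 80% arrays (red), in order of resection size, with group means and SDs as black bars. The means of Irs2, Ch25h, Fst and Akap12 climb over the 3 groups, Inmt and Hamp are lowest in the lean 70% group, and Ccnd1, Saa3, Prtn3 and Spink1 have their highest mean in it.

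The response of lean mice was set against that of obese mice through the interaction, the lean 80% minus lean sham change less the obese 80% minus obese sham change, which passed for 1104 of 10763 genes (10.3%). Of the 20 genes with the largest changes in lean mice named above, 7 passed, each with the larger change in lean mice. These 20 were chosen for their change on the same lean arrays, which favours a larger change in lean than in obese mice, so their number and direction are a description and nothing is read from them. Pnpla3 fell in lean livers and did not pass in obese livers (log2 -0.64, adjusted p = 0.258; difference -4.20, SE 0.64, adjusted p = 0.000222). Cidec, at least 59.5-fold higher in lean livers, changed by log2 2.004 in obese livers (difference 4.25, adjusted p = 1.16e-06, a fitted value and not a measured size, since no lean sham array detected it).

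Enc1 rose by log2 5.25 in lean livers and by 3.28 in obese livers (adjusted p of the difference = 7.61e-06), and Wdr92 by 5.17 and by 3.96 (adjusted p of the difference = 0.00718). By its other probe the difference of Wdr92 was -0.06 (adjusted p = 0.874). Mid1ip1 changed by log2 -4.13 in lean livers and by -2.77 in obese livers (adjusted p of the difference = 0.00999). For Dclk3 the fitted difference was -1.54 (adjusted p = 7.92e-06), with no lean 80% array detecting it. For Thbd the difference was 0.58 (adjusted p = 0.0450), and this call was lost without lean 80% array 1, 2, 3 or 4, lean sham array 1, 3 or 4, obese 80% array 1 or 2, or obese sham array 1, 2 or 3. It was also lost without background correction (0.39, adjusted p = 0.115), with the authors' deposited values (0.39, adjusted p = 0.116), with no filter on dim probes (adjusted p = 0.0794), with slides as random blocks (adjusted p = 0.0542) and with the replicate block (adjusted p = 0.0583). The interaction of Pdk4 did not pass (difference 1.63, SE 0.60, adjusted p = 0.0928), except without lean 80% array 4 (1.99, adjusted p = 0.0328) and when the spread came only from the arrays compared (adjusted p = 0.0319). Neither did that of Igfbp1 (difference 0.99, SE 0.46, adjusted p = 0.199).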

How the data were processed

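Whole liver RNA was measured on 24 Illumina arrays, 4 per group, on 4 slides. The authors deposited probe intensities without normalization, each with a detection score that is a fraction from 0 to 1, per the file headers. Since the score rises with brightness, the detection p was taken as its complement to 1. The authors' deposited value table holds log2 intensities, which quantile normalisation of the deposited intensities matched within 0.00957, and served as an alternative. The sources used here do not name the tools of that processing.

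In R 4.3.3 with limma 3.58.1, intensities were background-corrected by normexp (offset 16), quantile normalised and taken to log2. Probes detected at p under 0.05 on at least 4 of 24 arrays were tested with lmFit and eBayes in 1 model of group means (18 residual degrees of freedom), with Benjamini-Hochberg adjustment over 19631 probes. Each gene was read by its brightest probe, and 3961 genes had several, called in opposite directions in 131. Genes that no array of the lower group detected are given as bounds: the mean of the brighter group against, on each array of the dimmer group, the higher of the lowest detected signal and the probe's own. In list medians with bounds, genes detected in neither group, or with a bound short of any change, counted as unchanged. Precision is limited by the number of arrays. The scripts' tests were checked on simulated data.

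Named genes were the 10 largest rises and 10 largest falls without overlap, the leading and defining members of each list, the 8 largest rises and 8 largest falls without overlap between the lean resections, and genes singled out in the closing section. The members and lists were chosen with earlier results of these data known. Deviations of same-numbered arrays correlated at -0.101 to 0.016 between lean 80% and lean sham, so the numbers were not taken as pairs. Alternatives varied the background correction, scaling, probe filter, probe choice, arrays in the fit, variance trend, slides as random blocks, slide subsets, replicate block and each left-out array.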

Additional observations from a re-analysis of the deposited data

Results flagged for a closer look

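Of 458 groups of 4 arrays tested, 1 per named gene and surgery, 31 held an array whose gap to its nearest neighbour was large for the range of the group. Chance flags about 1 in 20 groups. Values are log2 intensities, and the range of the other 3 arrays is in parentheses.

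Lean 80% array 1 stood apart in Dusp1 at 11.89 (11.37 to 11.41), Egr3 at 5.22 (4.75 to 4.82), Fasn at 5.13 (5.99 to 6.10) and Gys2 at 8.99 (8.62 to 8.67). The same array did so in Slc25a15 at 12.12 (12.52 to 12.58) and Stat3 at 11.08 (11.24 to 11.25). Lean 80% array 3 stood apart in Cth at 9.68 (11.49 to 11.61), Cxcl12 at 10.43 (10.78 to 10.83), Dusp4 at 7.57 (8.49 to 8.68) and Fgf21 at 11.39 (8.19 to 8.60). The same array did so in Plin5 at 11.44 (10.76 to 10.86), Ppara at 7.14 (5.92 to 6.11), Slc51b at 5.53 (8.40 to 8.86) and Thbd at 11.22 (10.93 to 10.98). Lean 80% array 4 stood apart in Prtn3 at 5.69 (4.33 to 4.46). Lean sham array 1 stood apart in Cideb at 10.92 (11.22 to 11.28), Ppp1r3g at 5.03 (4.48 to 4.54), Slc25a15 at 10.82 (11.12 to 11.16) and Wdr92 at 5.88 (6.23 to 6.26). Lean sham array 2 stood apart in Plin4 at 6.64 (6.21 to 6.27) and Saa3 at 6.76 (7.35 to 7.41). Lean sham array 3 stood apart in F7 at 9.48 (9.14 to 9.18), Fst at 5.67 (4.69 to 4.79) and Utp15 at 4.63 (5.06 to 5.11). Lean sham array 4 stood apart in Ccl7 at 4.36 (4.31 to 4.31), Cd14 at 4.77 (5.45 to 5.57), Cyp4a14 at 10.70 (4.37 to 5.25) and Hmox1 at 4.66 (5.11 to 5.20). The same array did so in Per1 at 8.83 (7.55 to 7.76), Pim3 at 10.97 (10.10 to 10.23) and Stard4 at 10.25 (9.74 to 9.82).

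Among the 20 genes with the largest changes in lean livers, 7 passed the limma interaction, given here as the change in lean minus the change in obese livers on the log2 scale. The genes were chosen for their change on the same lean arrays, which favours differences of this direction, so the 7 are no independent result. The difference was 4.25 for Cidec, 1.97 for Enc1, 1.21 for Wdr92, 0.58 for Thbd, -4.20 for Pnpla3, -1.54 for Dclk3 and -1.35 for Mid1ip1. Those of Cidec and Dclk3 are fitted values, since no lean sham array detected Cidec and no lean 80% array Dclk3. A second probe of Wdr92 read -0.06 and did not pass, and the call of Thbd was lost under most alternatives. The adjusted p-values stand beside these genes in the report. In addition, 1567 of 3131 detected probes that could not be assigned to a single gene changed in lean 80% against lean sham livers, 807 higher and 760 lower, and no comparison by gene used them.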

How the results depend on the processing

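For lean 80% against lean sham, the numbers of changed genes and probes stayed within 1.5 times of those reported under every alternative run. Leaving out 1 array gave 5444 to 5600 genes (2355 to 2465 higher, 3075 to 3163 lower) and 9455 to 9721 probes. The replicate number as a block gave 5847 genes, and no pairing was assumed; for the resection sizes and the diets it gave 1829 and 1105. The block changed no call of a named gene in lean 80% against lean sham, and it ended the diet difference of Thbd (adjusted p = 0.0583). Lean 80% against lean 70% depended more on the fit. With upper-quartile scaling 818 genes were higher and 773 lower, in place of 773 and 1046. With only the arrays compared, 1085 probes and 509 genes passed (183 higher, 326 lower). With slides as random blocks, 1808 probes and 909 genes did (360 higher, 549 lower), and with lean 80% arrays 3 and 4 only, 1792 probes and 900 genes (353 higher, 547 lower). Leaving out 1 array gave 1172 to 2387 genes (492 to 1018 higher, 676 to 1369 lower) and 2301 to 4349 probes, with 492 genes higher without lean 80% array 2 and 1172 genes (496 higher, 676 lower) without lean 70% array 3. For the diets, leaving out 1 array gave 790 to 1220 genes (342 to 488 higher, 448 to 732 lower) and 1292 to 1971 probes. The causes were not tested.

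Of 229 named genes, 214 kept their side of the threshold under every alternative, and no direction turned among called genes. Without background correction the fold change of 68 named genes moved by over 1.5-fold, and with the authors' deposited log2 values that of 71. With the lean 80% arrays of 1 slide only, 13 did so on either slide, such as Cxcl2 (log2 2.45 on slide 3, log2 1.02 on slide 4) and Hbegf (log2 2.39 and 1.13). Alternatives for single genes between resections or diets, and for list counts, were chosen after seeing the data.

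Slide and surgery cannot be told apart, since no slide held both groups. Genes that no array of the lower group detected have only bounds. The fold changes of genes detected on 1 to 3 of its arrays, such as Fst, Ppp1r3g and Sc5d, rest partly on values below detection, and Saa1, Mt1 and Cyp2e1 lie near the top of the scale, where differences are compressed.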
